A study of Homo sapiens with 6 samples.

Results

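The epidermal growth factor receptor (EGFR) family and its ligands were followed in the human breast cancer line MDA-MB-231, which lacks oestrogen and progesterone receptors and ERBB2 amplification. The members were listed by gene name, with earlier results of these data known: the 4 receptors EGFR, ERBB2, ERBB3 and ERBB4 and the 6 ligand genes AREG, EREG, HBEGF, TGFA, BTC and NRG1. A probe set, the group of probes on the array that reads 1 transcript, was a member when the platform annotation gave it one of these symbols alone. This held for 38 of the 54613 probe sets, and they covered 9 of the 10 genes among 19775 genes in all. No probe set carried the symbol AREG alone in the annotation used here, and probe sets with several symbols named no gene. Amphiregulin was therefore not analysed here.

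The knockdown group was 3 single clones infected with a pSM2 retroviral vector for a short hairpin RNA against WASF3, an actin regulator of the WAVE family. The control group was 3 single clones infected with the empty vector or with a hairpin against GFP. All 6 clones were selected with puromycin at 1.0 µg/ml for 2 weeks, and all are labelled as passage 4, so infection and drug selection are common to both groups. The knockdown group pools the 2 hairpins named in the protocol, and the sources used here do not say which hairpin or control vector a given clone carried. Each array reads 1 clone, so clonal differences are part of the spread within each group. Values are log2 signals, and a change is the knockdown mean minus the control mean.

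The 4 receptors sit in the cell membrane and signal as pairs through their tyrosine kinase domains. TGFA binds EGFR. HBEGF, BTC and EREG bind EGFR and ERBB4, while neuregulins, the products of NRG1, bind ERBB3 and ERBB4. ERBB2 has no known ligand and acts as a partner, and the kinase of ERBB3 is weak, so both depend on the receptor they pair with. Most of these ligands are made as membrane proteins and are released by metalloproteinases of the ADAM family. Basal-like breast cancer cells are known for high EGFR, and active receptors drive the RAS and ERK cascade and the PI3K and AKT pathway.

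The promoters shown here belong to EGFR and TGFA, which had the largest spread over the arrays, and to EREG, which was lowest in the clone where EGFR was highest. They were taken from RefSeq (GRCh38.p14) as 300 bases, 250 before and 50 after an annotated start, on the strand of the gene. Capitals mark 4 motifs, none of which contains another, searched on both strands. A GC box is written GGGCGG and a TATA box is written TATAAA. An AP-1 site is written TGACTCA, and the fourth is the pentamer CCAAT. Among all 35116 promoters of this table, 45% hold a GC box, 11.5% a TATA box, 4.95% an AP-1 site and 34.6% the pentamer CCAAT in the same window.
EGFR, first start, chr7:55018767-55019066, plus strand: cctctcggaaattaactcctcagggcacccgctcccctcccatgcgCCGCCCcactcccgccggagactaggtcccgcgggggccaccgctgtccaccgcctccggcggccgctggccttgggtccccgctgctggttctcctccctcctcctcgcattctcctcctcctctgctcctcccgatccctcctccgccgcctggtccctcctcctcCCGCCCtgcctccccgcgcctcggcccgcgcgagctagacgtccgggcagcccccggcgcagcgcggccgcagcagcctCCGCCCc
EGFR, second start, chr7:55109589-55109888, plus strand: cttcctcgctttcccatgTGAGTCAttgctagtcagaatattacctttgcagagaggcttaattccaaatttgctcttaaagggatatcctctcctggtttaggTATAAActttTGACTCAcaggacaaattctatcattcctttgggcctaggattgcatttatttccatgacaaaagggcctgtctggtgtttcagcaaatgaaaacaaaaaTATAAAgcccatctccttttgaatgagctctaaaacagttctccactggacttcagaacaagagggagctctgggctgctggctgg
TGFA, upstream start, chr2:70553777-70554076, minus strand: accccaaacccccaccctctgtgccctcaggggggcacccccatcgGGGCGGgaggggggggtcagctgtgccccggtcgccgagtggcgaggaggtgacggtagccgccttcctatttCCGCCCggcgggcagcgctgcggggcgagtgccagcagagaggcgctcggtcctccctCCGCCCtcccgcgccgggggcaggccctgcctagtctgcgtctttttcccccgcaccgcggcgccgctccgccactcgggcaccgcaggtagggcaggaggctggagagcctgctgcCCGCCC
EREG, chr4:74364895-74365194, plus strand: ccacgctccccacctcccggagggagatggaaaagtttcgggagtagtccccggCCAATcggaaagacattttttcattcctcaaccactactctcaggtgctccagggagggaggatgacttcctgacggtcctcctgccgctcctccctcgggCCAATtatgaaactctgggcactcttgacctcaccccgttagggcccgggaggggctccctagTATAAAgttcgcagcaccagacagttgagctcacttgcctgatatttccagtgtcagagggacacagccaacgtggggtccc
EGFR has a pair of annotated starts with windows that differ widely in base composition. The first is 75.3% G and C and holds 3 GC boxes and 0 TATA boxes, against a median of 58.7% G and C over all promoters. The second is 42% G and C, with 0 GC boxes, 2 TATA boxes and 2 AP-1 sites. The upstream TGFA window is 75.3% G and C and holds 4 GC boxes. TGFA has another annotated start, for which the window (chr2:70553397-70553696, minus strand, letters not shown) is 63% G and C and holds 0 copies of all 4 motifs. The EREG window holds 1 TATA box and 2 copies of CCAAT at 57.7% G and C. A match of letters is a description of the window and does not show that a factor binds there.

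WASF3 lay below the control range in all 3 knockdown clones on its only probe set, with 5.40, 5.80 and 4.52 in knockdown clones 1, 2 and 3 against 6.77, 6.42 and 6.59 in the control clones. The 3 knockdown values lay within the range of leukocyte markers, 3.05 to 5.85 on single arrays, which these cells are not known to express. The WASF3 change of −1.35 missed the threshold over all probe sets (limma adjusted p = 0.102). The array medians lay between 5.12 and 5.17. Signal at the 3′ minus the 5′ end of GAPDH and ACTB, a sign of RNA quality, was 1.62 to 2.11 in knockdown and 1.13 to 1.47 in control clones. The groups did not overlap in this index, and its part in the results below was not tested for the family beyond the fit with this index as a covariate.

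None of the 38 probe sets of the family passed an adjusted p of 0.05 in limma, where 0.558% of all probe sets did, and none of the 9 genes passed, where 0.738% of all genes did (a gene is read on its brightest probe set, the one with the highest mean). At an unadjusted p under 0.05 there were 4 probe sets, 2 of ERBB3 and 2 of NRG1, against 14% of all probe sets. The groups did not overlap on 6 of the 38, against 21% of all, and on 2 of the 9 genes, EGFR and NRG1, against 24.7% of all genes. These shares are close to or below those over all features. Of the 38, 23 had a higher mean in knockdown clones, against 47.1% of all probe sets. The median change was 0.15 over the 9 genes and −0.011 over all genes. Over the 38 probe sets it was 0.032, and over all probe sets −0.012. On the brightest probe sets the knockdown clones were spread more widely than the control clones for 9 of 9 genes, which held for 76.7% of all genes. Of the 38 probe sets 27 had the larger SD in knockdown clones, and this share over all probe sets was not computed. At least 1 knockdown clone lay 1 log2 unit or more from the control mean for 3 of the 9 (EGFR, TGFA and NRG1), and for 4.7% of all genes. These 3 genes were singled out after their values were seen.

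**Figure D1:**
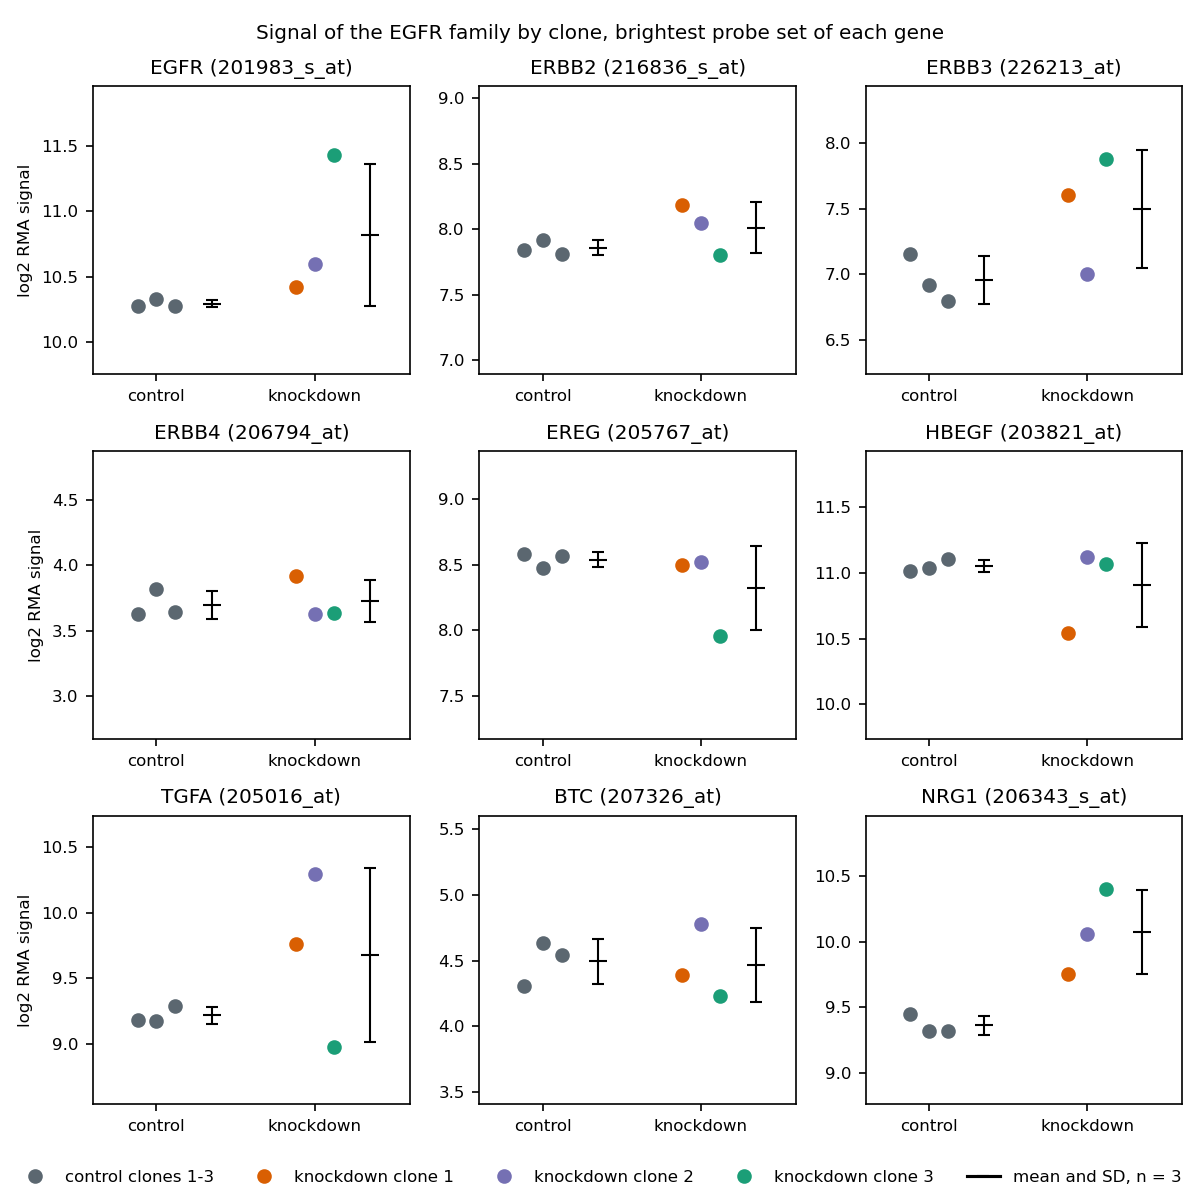
Log2 signal of each member gene on its brightest probe set, by group. Points are single clones and bars are mean and SD of 3 clones; each panel spans the same number of log2 units. Control clones lie close together, while single knockdown clones stand off for EGFR and EREG (clone 3) and HBEGF (clone 1). For TGFA clones 1 and 2 lie above the controls, clone 2 the farthest, and clone 3 lies below them.

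In these bulk values, fewer cells with a transcript and less of it per cell cannot be told apart. Among the receptors, EGFR, which binds EGF and TGFA, read 10.28, 10.33 and 10.28 in control clones 1, 2 and 3, and 10.42, 10.60 and 11.43 in knockdown clones 1, 2 and 3 on its brightest probe set, 201983_s_at. The groups did not overlap, and knockdown clones 1, 2 and 3 were at 1.09, 1.23 and 2.20 times the control mean. The change of 0.52 (SE 0.24, 95% interval −0.041 to 1.08, limma adjusted p = 0.393) was within the spread between clones, and the exact two-sided permutation test reached its lower limit for 3 against 3, p = 0.1. Without clone 3 it was 0.21, with the index of RNA quality as a covariate 0.93, and without probe sets that can match several transcripts 0.19. With its probe sets averaged it was 0.17, and none of these passed (adjusted p from 0.271 to 0.685).

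The 9 probe sets of EGFR gave clone 3 very different distances from the controls. On 201984_s_at the signal was 8.37, 8.34 and 8.50 in control clones 1, 2 and 3, and 8.07, 8.79 and 10.96 in knockdown clones 1, 2 and 3. Clone 3 was here 5.87-fold above the control mean and clone 1 the lowest of all arrays, so the groups overlapped and the change was 0.87 (SE 0.64, 95% interval −0.63 to 2.36, limma adjusted p = 0.613). On 224999_at, as bright as the first, clone 3 was only 1.31-fold above the control mean, with 10.35, 10.37 and 10.37 in control clones 1, 2 and 3, and 10.34, 10.56 and 10.75 in knockdown clones 1, 2 and 3. Clone 3 was the highest array on 6 of the 9 probe sets, and clone 1 the lowest on 5. The dimmer probe sets 210984_x_at and 211607_x_at, whose names mark probes that can match other transcripts, put clone 3 at 1.42 and 1.45 times the control mean. On 211550_at all 3 knockdown clones were below all controls, by a mean of −0.13, at signals no higher than those of leukocyte markers. The direction of EGFR in clone 3 was thus shared by its 3 brightest probe sets, while the size ranged from 1.31 to 5.87 times the control level. Clone 3 is 1 sample, so this difference has no replicate.

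**Figure D2:**
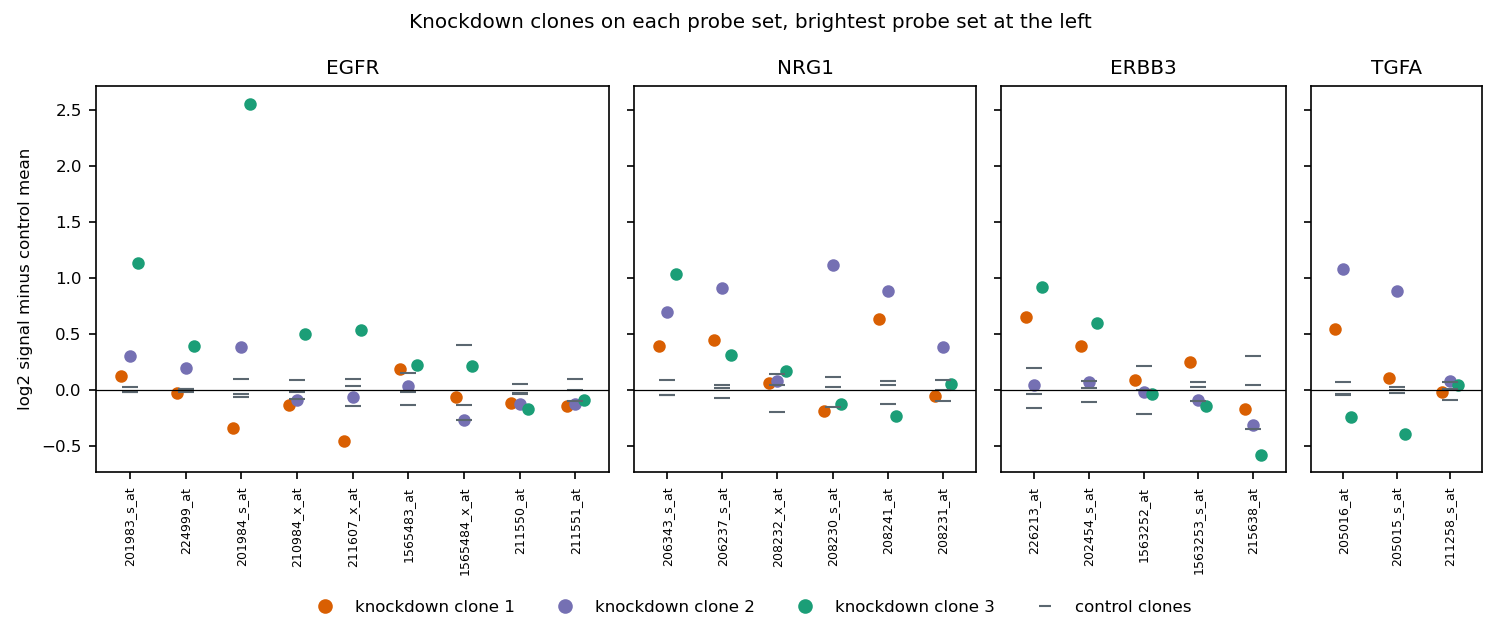
Log2 signal of each knockdown clone minus the control mean (vertical axis) on every probe set of EGFR, NRG1, ERBB3 and TGFA, ordered by brightness from the left; short dashes are the 3 control clones. Clone 3 is above the controls on the brightest EGFR probe sets by 1.14, 0.39 and 2.55 log2 units. The dimmest TGFA probe set shows little of the clone differences of the others, at signals within the range of the leukocyte markers.

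ERBB2, the partner receptor that is amplified in some breast cancers, read 7.84, 7.92 and 7.81 in control clones 1, 2 and 3, and 8.18, 8.05 and 7.80 in knockdown clones 1, 2 and 3 on 216836_s_at. Clones 1 and 2 were above the controls and clone 3 at their lower edge, so the groups overlapped. The change was 0.15 (SE 0.12, 95% interval −0.12 to 0.42, limma adjusted p = 0.626). The other probe sets, 234354_x_at and 210930_s_at, were lower in knockdown clones by means of −0.14 and −0.27, at signals within the range of the leukocyte markers, and averaging the 3 probe sets turned the sign (−0.086). Without clone 1 the change was 0.064 and without clone 3 0.26, neither of which passed (adjusted p = 0.808 and 0.188).

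ERBB3, the neuregulin receptor with a weak kinase, read 7.16, 6.92 and 6.79 in control clones 1, 2 and 3, and 7.61, 7.00 and 7.88 in knockdown clones 1, 2 and 3 on 226213_at. Clones 1 and 3 were above every control, at 1.57 and 1.89 times the control mean, while clone 2 lay within the controls. The change was 0.54 (SE 0.22, 95% interval 0.028 to 1.05, limma adjusted p = 0.329), and the exact two-sided permutation test gave p = 0.2. The next brightest probe set, 202454_s_at, put the clones in the same order, with 1.31, 1.05 and 1.52 times the control mean in clones 1, 2 and 3. Its change was 0.36 (SE 0.14, limma adjusted p = 0.321). Its signals were low, from 5.20 to 5.91, and only knockdown clone 3 read above the highest leukocyte marker value, 5.85. On the other 3 probe sets the change lay between −0.35 and 0.013, and these had signals no higher than the highest leukocyte marker value. The change of ERBB3 was 0.79 (limma adjusted p = 0.106) without clone 2, 0.35 (adjusted p = 0.357) without clone 3 and 0.11 (adjusted p = 0.678) when its probe sets were averaged.

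ERBB4, the other neuregulin receptor, had all 4 probe sets between 2.91 and 3.91 on all arrays. The 11 measured leukocyte markers, which these cells are not known to express, read 3.05 to 5.85 on single arrays, so ERBB4 is not shown to be above background. Its brightest probe set, 206794_at, gave 0.030 (SE 0.11, 95% interval −0.23 to 0.29, limma adjusted p = 0.939). The sign turned in 3 of 14 alternative fits, and no direction is given for ERBB4.

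Among the ligands, NRG1, which encodes the neuregulins, had the lowest adjusted p of the family. On 206343_s_at the signal was 9.45, 9.32 and 9.32 in control clones 1, 2 and 3, and 9.75, 10.06 and 10.40 in knockdown clones 1, 2 and 3. All knockdown clones were above all control clones, at 1.31, 1.62 and 2.05 times the control mean, with means of 9.36 ± 0.08 in control and 10.07 ± 0.32 in knockdown clones (SD, n = 3). The change was 0.71 (SE 0.16, 95% interval 0.34 to 1.08, limma adjusted p = 0.109) and the exact two-sided permutation test gave p = 0.1, so it did not pass over all probe sets. It passed without knockdown clone 1 (0.87, limma adjusted p = 0.0301) or clone 3 (0.55, adjusted p = 0.0452), and with a weight for each array (0.67, adjusted p = 0.0344). It did not pass when the probe sets were averaged, at 0.37 (adjusted p = 0.241), without probe sets that can match several transcripts, at 0.43 (adjusted p = 0.564), or with the index of RNA quality as a covariate, at 1.12 (adjusted p = 0.195). Without control clone 1, 2 or 3 the adjusted p was 0.385, 0.402 and 0.387. Over all 15 alternative fits its adjusted p ran from 0.0301 to 0.564 and its sign stayed positive.

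The 6 probe sets of NRG1 all had a higher mean in knockdown clones, by 0.10 to 0.71, but they did not rank the clones alike. Of these, 208231_at read 3.16 to 3.64, within the range of the leukocyte markers, so signal above background is not shown for it. On 206237_s_at the groups also did not overlap, with 6.58, 6.48 and 6.60 in control clones 1, 2 and 3, and 7.00, 7.46 and 6.86 in knockdown clones 1, 2 and 3. Here clone 2 and not clone 3 was the highest, and the change was 0.56 (SE 0.16, limma adjusted p = 0.174). On 208241_at clones 1 and 2 were 1.55 and 1.84 times the control mean and clone 3 was 0.85 times. On 208230_s_at clone 2 alone stood above the controls, at 2.17 times their mean, with clones 1 and 3 at 0.88 and 0.92 times. NRG1 makes many splice forms, and these probe sets were not assigned to forms here. Clone 2 was the highest array on 4 of the 6 and clone 3 on 2.

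TGFA, a ligand of EGFR, lay on opposite sides of the controls in different knockdown clones. On 205016_at the signal was 9.18, 9.17 and 9.29 in control clones 1, 2 and 3, and 9.76, 10.30 and 8.98 in knockdown clones 1, 2 and 3. Clones 1 and 2 were 1.46 and 2.12 times the control mean and clone 3 was below all controls at 0.85 times, so the groups overlapped. The change was 0.46 (SE 0.29, 95% interval −0.22 to 1.14, limma adjusted p = 0.545). Without clone 3 it was 0.81 and passed (limma adjusted p = 0.0330), while without clone 2 it was 0.15 (adjusted p = 0.821) and with the probe sets averaged 0.23 (adjusted p = 0.633). The order of the clones was the same on 205015_s_at, at 1.08, 1.85 and 0.76 times the control mean in clones 1, 2 and 3. On 211258_s_at, the dimmest, the clones lay between 0.99 and 1.05 times the control mean. That probe set read 5.23 to 5.39 on all arrays, within the range of the leukocyte markers, so signal above background is not shown for it. The clone in which TGFA was lowest was the clone in which EGFR was highest.

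HBEGF, the heparin-binding ligand, was bright on 203821_at, where it read 11.01, 11.03 and 11.10 in control clones 1, 2 and 3, and 10.54, 11.12 and 11.07 in knockdown clones 1, 2 and 3. Clone 1 alone was below the controls, at 0.70 times their mean, and the change was −0.14 (SE 0.16, 95% interval −0.51 to 0.23, limma adjusted p = 0.754). The second bright probe set, 38037_at, gave the same picture, with 0.70, 1.07 and 1.01 times the control mean in clones 1, 2 and 3. Without clone 1 the sign of HBEGF turned (0.044), as it did with the index of RNA quality as a covariate (0.29). Clone 1 also had the highest index, 2.11, and the part of RNA quality in its HBEGF level was not tested beyond that fit.

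EREG, which encodes epiregulin, read 8.58, 8.47 and 8.57 in control clones 1, 2 and 3, and 8.49, 8.52 and 7.95 in knockdown clones 1, 2 and 3 on 205767_at. Clones 1 and 2 were within the control range and clone 3 was below it, at 0.67 times the control mean. The change was −0.22 (SE 0.16, 95% interval −0.58 to 0.15, limma adjusted p = 0.609), and without clone 3 it was −0.031 (adjusted p = 0.894). With the index of RNA quality as a covariate it was −0.34 (adjusted p = 0.657), and with array weights −0.13 (adjusted p = 0.659). Its sign was negative in all 15 alternative fits, none of which passed. The second probe set of EREG, 1569583_at, gave −0.083 (SE 0.17, limma adjusted p = 0.874) at signals no higher than those of the leukocyte markers. BTC, which encodes betacellulin, had both probe sets between 3.21 and 4.78, also no higher than the leukocyte markers, so signal above background is not shown for it. Its brighter probe set, 207326_at, gave −0.030 (SE 0.16, 95% interval −0.40 to 0.34, limma adjusted p = 0.958), and the sign turned in 4 of 14 alternative fits.

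**Figure D3:**
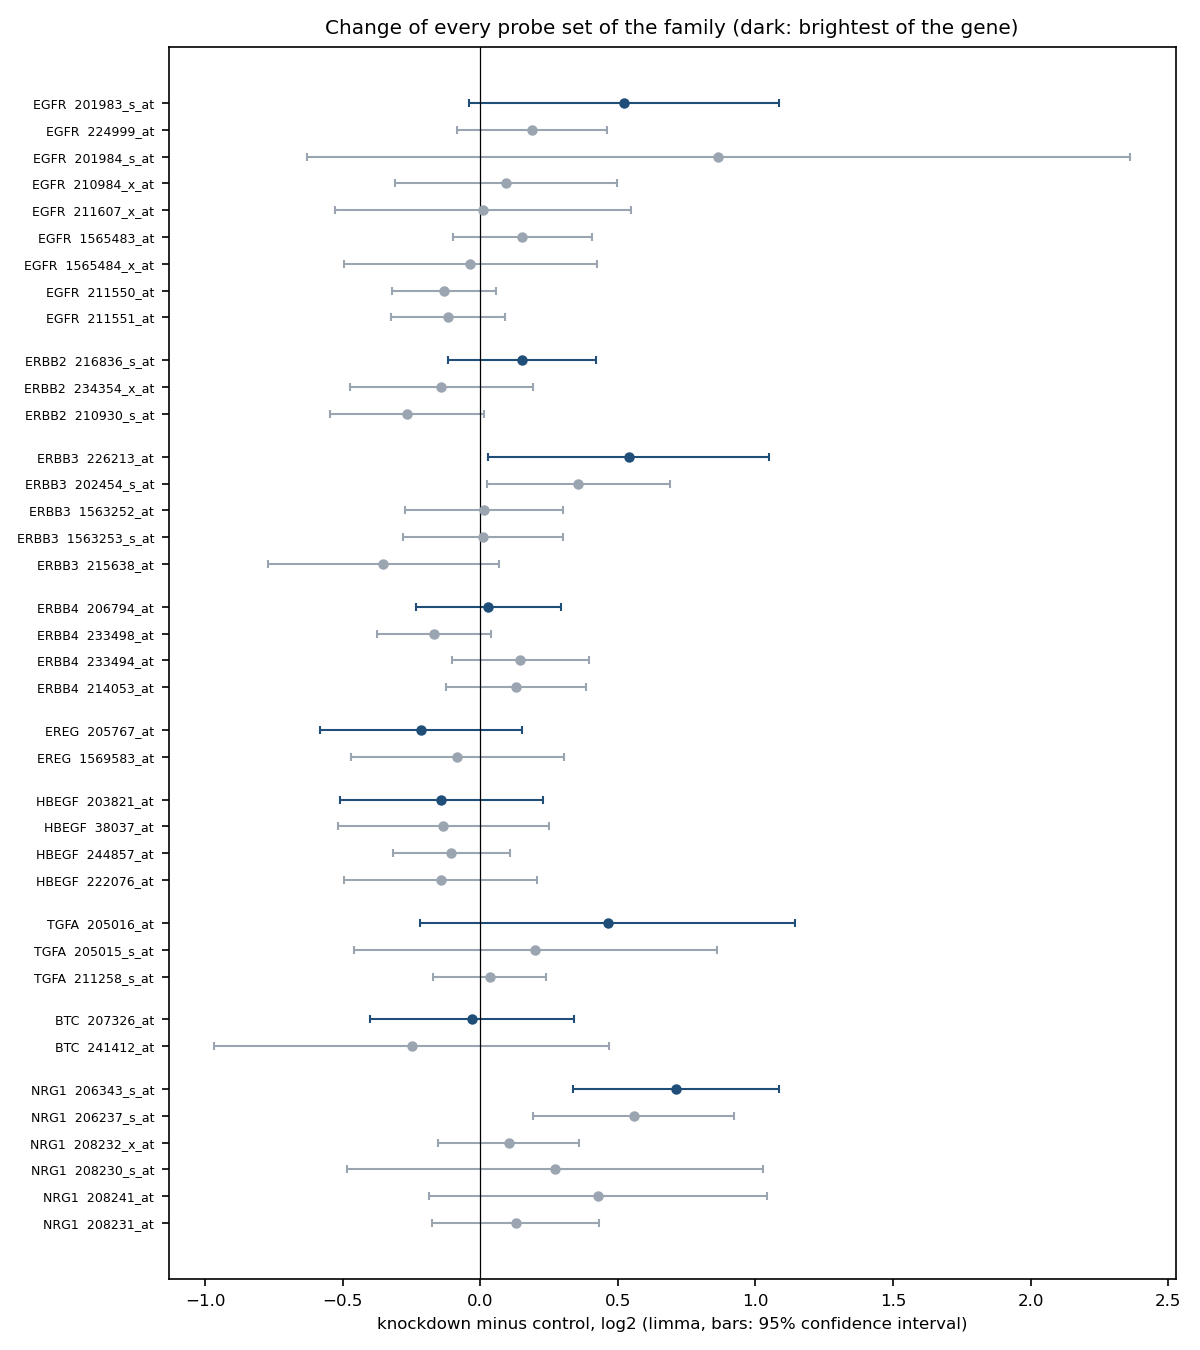
Knockdown minus control change (horizontal axis, log2) of all 38 probe sets with its 95% confidence interval from limma; dark points are the brightest probe set of each gene. Intervals of 4 probe sets, 2 of ERBB3 and 2 of NRG1, leave out 0 before adjustment, and none passed after it.

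The members lie on several chromosomes, and EREG, AREG and BTC lie in this order on chromosome 4 in RefSeq, with no other measured gene of mean log2 signal above 5 between them. For each member the 5 measured genes on either side, with mean log2 signal above 5, were read on their brightest probe sets. This rule was chosen after seeing the data. Around EGFR on chromosome 7 the median of the 10 neighbours was −0.16 in clone 3, where EGFR was 1.14 above the control mean. These neighbours ran from −1.70 (COBL) to 0.83 (NIPSNAP2) in that clone, 4 above and 6 below the control mean. On the side of EGFR towards lower coordinates all 5 were lower, from COBL to −0.15 for IKZF1. On the other side LANCL2, the nearest, was at −0.30, while VOPP1, MRPS17, NIPSNAP2 and PSPH were higher, at 0.23, 0.19, 0.83 and 0.37. The part of the region in the EGFR values was not tested. Around TGFA on chromosome 2 the medians of the 10 neighbours were 0.45, 0.38 and −0.21 in clones 1, 2 and 3, beside 0.55, 1.08 and −0.24 for TGFA itself. The median of the neighbours had the sign of TGFA in each clone, and the part of the region in the TGFA values was not tested. This match of signs was not particular to TGFA. It was also seen for NRG1, at 0.39, 0.70 and 1.04 in clones 1, 2 and 3. For BTC, at −0.11, 0.28 and −0.26, the neighbour medians were −0.015, 0.068 and −0.043. Around NRG1 on chromosome 8 the medians were 0.022, 0.074 and 0.060, around ERBB3 on chromosome 12 0.0087, −0.11 and −0.053, and around EREG −0.069, 0.068 and −0.043. None of the 81 neighbours of the 10 listed genes (EREG counts among those of AREG and BTC) passed in limma, and 11 had an unadjusted p under 0.05 in either direction. Over all genes 9.11% had such a p with a higher mean and 7.67% with a lower one.

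**Figure D4:**
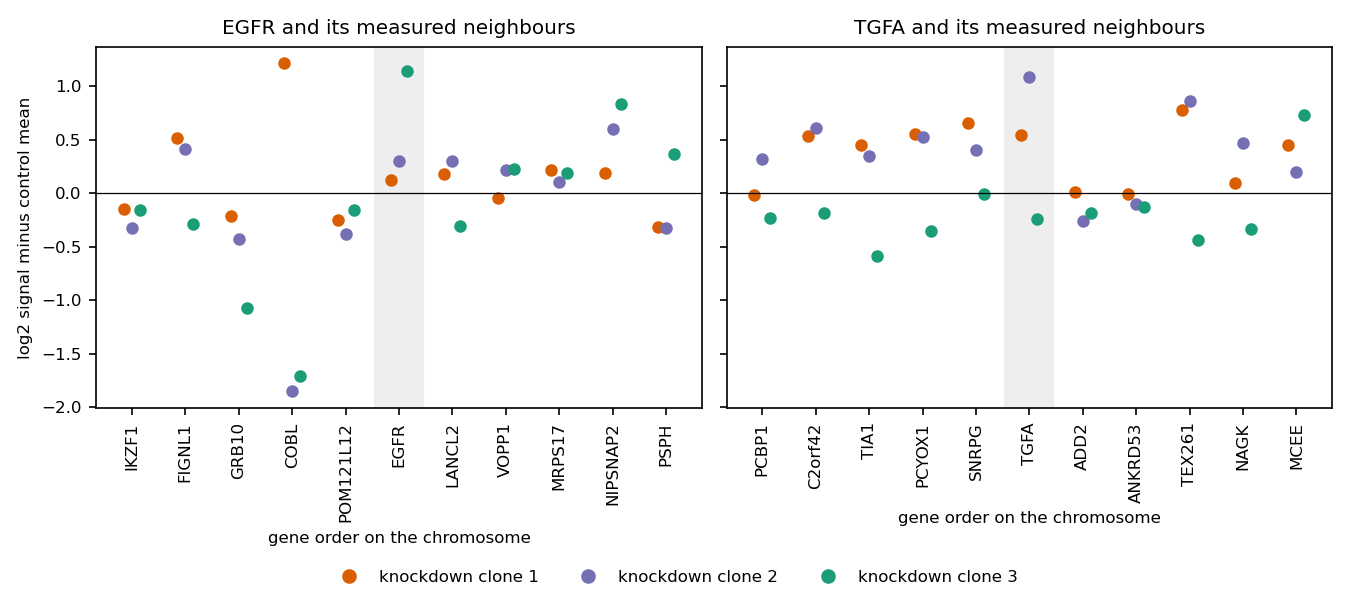
Log2 signal of each knockdown clone minus the control mean (vertical axis) for EGFR and TGFA, shaded, and for 5 measured genes on either side in chromosome order. In clone 3 EGFR stands at 1.14 and its neighbours lie from −1.70 to 0.83, on both sides of the control mean, while clones 1 and 2 lie above clone 3 for TGFA and for most of its neighbours.

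TGFA and EGFR had the largest SD over the 6 arrays among the members, 0.492 and 0.446. Among 13042 genes with mean log2 signal above 5, those with the highest Pearson correlation with TGFA were MOB1A (r = 0.998), CEP78 (0.998) and NEK2 (0.998). MOB1A read 9.76, 10.12 and 9.14 in knockdown clones 1, 2 and 3 against 9.30 on average in the controls. For EGFR they were GKAP1 (r = 0.998), STAP2 (0.997) and BBS2 (0.997), and BBS2 read 8.70 in clone 3 against 7.47 on average in the controls. With 6 arrays and control clones this close together, such values rest on the order and spacing of the 3 knockdown clones, and they describe likeness over these arrays only.

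The other genes of the pathway were read through 8 lists with 110 entries, of which 98 were measured. Over all of them 2 fell and 0 rose at the threshold in limma, where 0.42% of all genes fell and 0.319% rose, and before adjustment 18 genes with a lower mean and 8 with a higher one had a p under 0.05, where 7.67% and 9.11% of all genes did. MUC1, a membrane mucin that associates with receptors of this family, fell by 1.24 on the log2 scale (SE 0.09, limma adjusted p = 0.00785). Its levels were 7.73 ± 0.06 in control and 6.48 ± 0.10 in knockdown clones (SD, n = 3), its 3 probe sets shared the sign, and 2 passed. SPRY4, a feedback inhibitor of the RAS and ERK cascade, fell by 0.56 (SE 0.09, adjusted p = 0.0491). Both calls were lost without control clone 1, 2 or 3 (MUC1 −1.28, −1.23 and −1.22, adjusted p from 0.0891 to 0.111; SPRY4 −0.53, −0.56 and −0.58, adjusted p from 0.265 to 0.300). That of SPRY4 was also lost without knockdown clone 2 (−0.58, adjusted p = 0.0875). With the index of RNA quality in the fit neither passed (adjusted p = 0.173 for MUC1 and 0.315 for SPRY4), and with a replicate block neither passed (0.0970 and 0.188). SPRY4 also missed the threshold with an intensity trend (adjusted p = 0.0693) or median centring (0.0515).

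LRIG1, a membrane protein that limits the level of the receptors of this family, came close to the threshold. On its brightest probe set it read 6.61, 6.40 and 6.70 in control clones 1, 2 and 3, and 5.55, 5.02 and 5.73 in knockdown clones 1, 2 and 3. Every knockdown clone was below every control clone, and the change was −1.14 (SE 0.19, 95% interval −1.57 to −0.70, limma adjusted p = 0.0534). The knockdown values were no higher than the highest leukocyte marker value, 5.85. All 4 probe sets of LRIG1 shared the sign, and their mean changed by −0.31 (adjusted p = 0.0914). LRIG1 passed without knockdown clone 1 (−1.20, adjusted p = 0.0449) or clone 3 (−1.29, adjusted p = 0.0131), with array weights (−1.27, adjusted p = 0.0120), after quantile normalization again (adjusted p = 0.0481) and with the filter on low values (adjusted p = 0.0499). It did not pass in the other 9 alternative fits, among them those without control clone 1, 2 or 3 (adjusted p = 0.306, 0.270 and 0.290), without knockdown clone 2 (0.0744), with a replicate block (0.140) and with the index of RNA quality as a covariate (0.263). In its list of receptor inhibitors and degradation genes, 16 of 17 were measured, with a median change of −0.080 and no call. Before adjustment 4 of them were lower and 3 higher at a p under 0.05, where 7.67% and 9.11% of all genes were. PTPN12, a tyrosine phosphatase, gave −0.49 (SE 0.11, limma adjusted p = 0.103).

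No gene of ligand shedding passed in limma among 13 measured, with a median of −0.16 and 10 lower means. Before adjustment 4 had a p under 0.05, all with a lower mean, where 7.67% of all genes had such a p and a lower mean. The metalloproteinase ADAM8 gave −0.46 (SE 0.08, limma adjusted p = 0.0621) and ADAM19 −0.66 (SE 0.14, limma adjusted p = 0.101), both with every knockdown clone below every control clone. With the index of RNA quality as a covariate ADAM8 gave −0.51 and ADAM19 −0.26 (limma adjusted p = 0.268 and 0.582). With the probe sets averaged they gave −0.48 and −0.39 (limma adjusted p = 0.0420 and 0.0891). The groups did not overlap on 6 of the 13 shedding genes, and on 24.7% of all genes. Among receptor adaptors and proximal kinases (19 of 22 measured, median 0.030) the adaptor NCK1 gave −0.69 (SE 0.13, limma adjusted p = 0.0715) and the RAS exchange factor SOS2 0.39 (SE 0.12, limma adjusted p = 0.227). Among endocytosis genes (14 of 15, median 0.011) the late endosome GTPase RAB7A gave −0.52 (SE 0.12, limma adjusted p = 0.107) and AP2B1, a subunit of the clathrin adaptor, 0.64 (SE 0.19, limma adjusted p = 0.191). With the probe sets of each gene averaged, NCK1 gave −0.56, SOS2 0.097, RAB7A −0.29 and AP2B1 0.53 (limma adjusted p = 0.0420, 0.684, 0.111 and 0.202). None of these genes passed in the main fit, on all 6 arrays with group only. In alternative fits ADAM8 and NCK1 each passed in 4, ADAM19 in 3 and AP2B1 in 2, while SOS2 and RAB7A did not pass in any.

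In the RAS, RAF, MEK and ERK list (9 of 15 measured, median −0.11) the scaffold KSR1 gave 0.60 (SE 0.16, limma adjusted p = 0.155), although only 2 of its 4 probe sets had this sign, and HRAS gave −0.25 (SE 0.13, limma adjusted p = 0.471). Of the 14 transcripts induced by EGF through ERK, 10 had a lower mean (median −0.12), and SPRY4 was the one that passed. The 9 partner and co-receptors had a median of −0.13, with MUC1 the one that passed. Of the other ligands 4 of 5 were measured, at no more than 5.59 on average, no higher than the leukocyte markers. NRG2 gave −0.14 (SE 0.08, limma adjusted p = 0.515) and NRG4 0.038 (SE 0.08, limma adjusted p = 0.888).

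**Figure D5:**
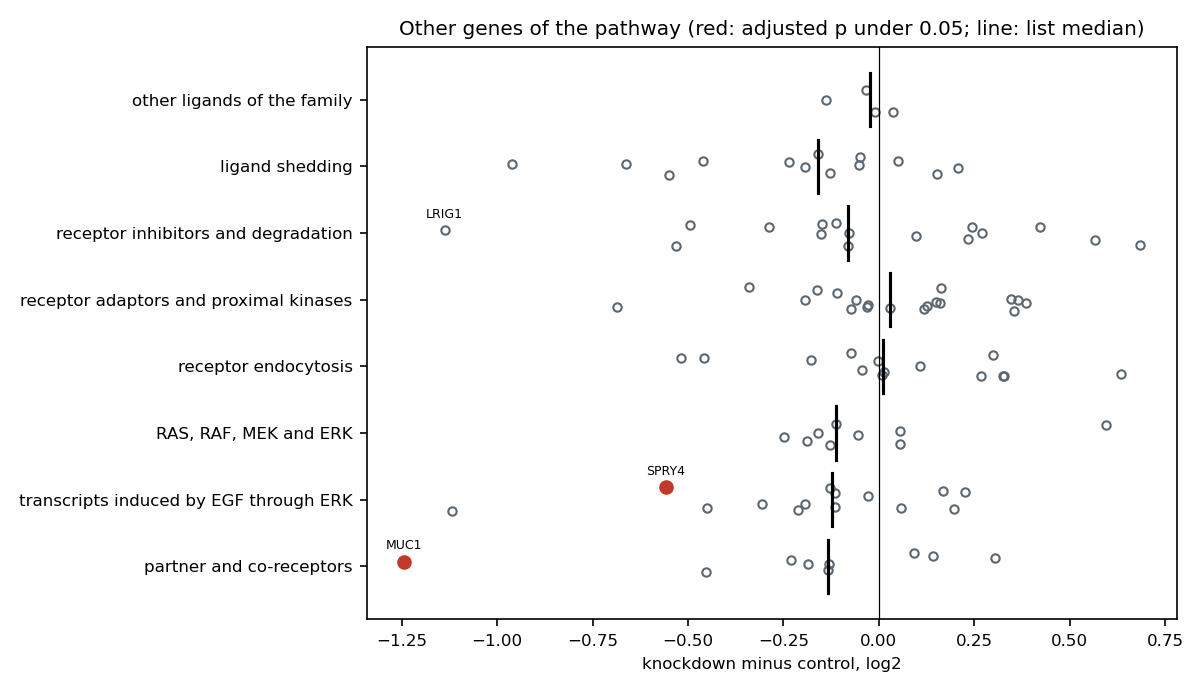
Knockdown minus control change (horizontal axis, log2) of 98 measured genes in 8 lists of the pathway, each on its brightest probe set. Red points, MUC1 and SPRY4, passed an adjusted p of 0.05; LRIG1 is labelled at −1.14 and did not pass, and black lines are list medians.

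The 8 genes of a check of the line's identity read, on average in control clones, 14.28 for VIM, 13.01 for KRT18, 12.28 for FN1, 11.77 for CD44, 11.34 for KRT8, 5.89 for the oestrogen receptor ESR1, 4.94 for CDH1 and 3.31 for the progesterone receptor PGR. VIM and FN1 are mesenchymal genes. CDH1 and PGR, which mark epithelial or luminal cells, lay within the range of the leukocyte markers on these averages, and ESR1 lay just above it. KRT8 and KRT18, which the luminal list also holds, went the other way and were bright. None of the 8 passed in limma, 6 had a lower mean in knockdown clones (median −0.15), and KRT8 and KRT18 had a p under 0.05 before adjustment. Of 12 luminal breast markers 11 had a lower mean in knockdown clones and none passed in limma (median −0.32). Before adjustment 6 of them, all lower, had a p under 0.05, where 7.67% of all genes had such a p and a lower mean. TFF1 gave −2.95 (SE 0.60, limma adjusted p = 0.0895) and KRT8 −0.58 (SE 0.16, limma adjusted p = 0.155). The summed linear signal of this list was 11311 to 17668 in knockdown and 22639 to 24105 in control clones, and its part in the values of the family was not tested. The 4 measured basal keratinocyte markers had a median change of −0.039 (KRT15 0.25, KRT14 −0.22), the 8 fibroblast markers −0.045 (LUM −0.18, COL3A1 −0.19) and the 11 leukocyte markers −0.10 (CD3D −0.28, CD14 −0.32), with no call in any of them and 1 gene, a leukocyte marker, at a p under 0.05 before adjustment.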

How the data were processed

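Total RNA of 6 clones was labelled with a kit that primes at the 3′ end of transcripts and hybridised to Affymetrix arrays, 1 per clone. The authors computed the deposited log2 values by RMA, for which the submitters' processing notes name Affymetrix Expression Console 1.0. RMA corrects background and gives all arrays one distribution, which hides any shift common to most transcripts. The table held 0 columns of other samples. Scanner files were not used here, and the number of arrays limits the precision.

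Gene names came from the platform annotation, with symbols updated by gene ID through RefSeq (GRCh38.p14): 41091 carried 1 symbol (41037 matched by ID), 1801 several and 11721 none. Those with several named no gene. The 62 control probe sets were left out. Values were fitted with limma 3.58.1 (lmFit, eBayes, group only, all 6 arrays) in R 4.3.3, with two-sided tests and Benjamini-Hochberg adjustment over 54613 probe sets. The code was tested on simulated data. A gene was read on its probe set with the highest mean and called at an adjusted p under 0.05.

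Named genes were all members, WASF3, per list up to 3 called genes or else the 2 of smallest p, and the 3 genes most correlated with each of the 2 members of largest SD. Members and lists were chosen with earlier results of these data known. The lists covered other ligands, shedding, receptor inhibitors, adaptors, endocytosis, RAS to ERK, EGF-induced transcripts, partner receptors, and luminal, basal keratinocyte, fibroblast, leukocyte and cell line markers; a further planned list is not reported here.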

Additional observations from a re-analysis of the deposited data

How the results depend on the processing

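Of the 132 values of the 9 member genes over 15 alternative fits, 117 kept their sign and their side of the threshold, 4 passed (NRG1 and TGFA, as given above) and 11 changed sign (ERBB2, ERBB4, HBEGF and BTC). With single clones left out, the count of member probe sets that passed ran from 0 to 4 and of member genes from 0 to 2. The 4 were TGFA 205016_at and NRG1 206343_s_at, 206237_s_at and 208241_at, without knockdown clone 3. With array weights 2 probe sets and 1 gene, NRG1, passed. The same range was 2 to 1225 for all genes called (146 with all clones) and 0 to 17 for pathway genes called (2 with all clones).

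The counts of all genes and of pathway genes called were 63 and 1 with an intensity trend, 714 and 10 with array weights, 1 and 0 with the index of RNA quality in the fit, 238 and 5 when the probe sets of a gene were averaged, and 88 and 0 without probe sets that can match several transcripts. Pathway genes called came to 1 with median centring and 3 with quantile normalization again. Without probe sets that can match several transcripts, MUC1 and SPRY4 had no value and could not be called. The cause of the other shifts was not tested. With a replicate block on the clone number, 3 genes and 0 pathway genes were called, and no member. Clones of the same number showed no shared deviation from their group means (correlations of −0.046, −0.079 and −0.043 over genes). Control clones differed little from each other (median SD 0.075 over genes), so these correlations cannot decide whether the number pairs clones.

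Changes of sign were as follows. ERBB2 gave −0.077 with the RNA quality index and −0.086 when its probe sets were averaged. ERBB4 gave −0.27 with the index and −0.064 to 0.090 with single clones left out. HBEGF gave 0.29 with the index and −0.25 to 0.044 with single clones left out. BTC gave 0.084 with array weights and −0.19 to 0.087 with single clones left out. ERBB4 and BTC did not pass the filter on a mean log2 value above 5, which therefore gave no value for them.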
